A study of Mus musculus with 8 samples.

Results

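The circadian clock genes described here are the 10 core clock and output genes Arntl, Clock, Per1, Per2, Per3, Cry1, Cry2, Nr1d1, Nr1d2 and Dbp. They were taken by their symbol in the platform annotation, with every probe set that carries that symbol alone, which gave 23 probe sets of the 45037 tested and 10 of 18193 genes. The arrays held total RNA of NIH3T3 cells, an established line of mouse embryonic fibroblasts, all of which had been transduced with 2 reporters, mVenus-p27K- (a mutant p27) and mCherry-hCdt1(30/120) (a fragment of human Cdt1). All cells had been kept without serum and then held for 5 h in medium with 10% serum. The G1 group is the mVenus-negative, mCherry-positive cells (4 arrays) and the G0 group is the cells positive for both (4 arrays). No label says whether the transduced cells were a clone, or whether replicates came from separate cultures, so the p-values measure the spread between these arrays, which may be technical. No array of cells before the return of serum was analysed, so induction by serum itself was not measured, only the difference between the sorted groups.

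The mammalian clock is a loop of transcription and repression that runs in nearly every cell, fibroblasts included. ARNTL (also called BMAL1) and CLOCK form a dimer that binds E-box sequences and activates the Per, Cry and Nr1d genes and Dbp. PER and CRY proteins return to the nucleus and repress that dimer, while the nuclear receptors NR1D1 and NR1D2 (REV-ERB alpha and beta) repress Arntl through ROR elements. DBP, TEF and HLF activate genes with D-boxes, and NFIL3 represses them. Serum given to starved fibroblasts resets the loop, beginning with an acute rise of Per1 and Per2 mRNA.

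The promoter sequences below show which of these elements lie close to the start sites of the genes measured. They come from RefSeq on mouse build GRCm38.p6, which holds 250 bases before and 50 after each start. It had 13 entries for 9 of the 10 genes, some with several starts, and Per2 was not matched. The letters searched, on both strands, were CACGTG (E-box), CACGTT (E′-box, AACGTG when read on the other strand), TTANGTAA (D-box), TAGGTCA or TGGGTCA (core of a ROR element) and TGACGTCA (cyclic AMP response element), and no pair of these shares letters at a site below. Of all 32851 promoters of this length, 7.15% held the E-box, 4.68% the E′-box, 2.32% the D-box, 6.45% either ROR core and 1.79% the cyclic AMP element. Among the 9 clock genes with an entry the E-box was found in 2, the E′-box in 3 and the D-box in 1. A ROR core was found in 1 of these genes and the cyclic AMP element in 0. A gene was counted if any of its entries held a match, whereas the shares above are per promoter. The match nearest a start was the E′-box of Nr1d1, 28 bases before it, and the ROR core of Arntl lay 30 bases after one. A match of letters is a description of the sequence and shows no binding. The first pair is given whole because only Cry2 and Dbp had a probe set whose G1 and G0 arrays did not overlap. The others are the stretches around each match. Capitals mark the matches, and the Dbp window holds none.
Cry2, minus strand, chr2:92434020-92434319: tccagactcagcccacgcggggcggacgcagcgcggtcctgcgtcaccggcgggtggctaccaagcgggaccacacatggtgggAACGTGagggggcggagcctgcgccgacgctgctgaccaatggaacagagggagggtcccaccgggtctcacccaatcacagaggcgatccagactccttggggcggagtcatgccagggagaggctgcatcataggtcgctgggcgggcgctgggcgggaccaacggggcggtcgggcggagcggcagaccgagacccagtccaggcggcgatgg
Dbp, plus strand, chr7:45704997-45705296: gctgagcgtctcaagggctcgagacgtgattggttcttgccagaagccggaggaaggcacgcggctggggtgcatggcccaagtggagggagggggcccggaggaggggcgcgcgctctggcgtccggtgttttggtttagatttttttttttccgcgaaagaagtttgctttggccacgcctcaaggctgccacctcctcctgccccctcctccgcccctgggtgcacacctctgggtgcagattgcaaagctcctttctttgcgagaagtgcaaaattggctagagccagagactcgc
Per1, E-box, plus strand, chr11:69098759-69098812: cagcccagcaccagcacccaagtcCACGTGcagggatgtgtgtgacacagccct
Cry1, E′-box and E-box, minus strand, chr10:85185085-85185157: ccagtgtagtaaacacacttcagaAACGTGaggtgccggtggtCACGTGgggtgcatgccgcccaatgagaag
Nr1d1, E′-box, minus strand, chr11:98775376-98775429: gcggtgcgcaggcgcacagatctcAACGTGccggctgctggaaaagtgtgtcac
Per3, 2 D-boxes, minus strand, chr4:151044792-151044894: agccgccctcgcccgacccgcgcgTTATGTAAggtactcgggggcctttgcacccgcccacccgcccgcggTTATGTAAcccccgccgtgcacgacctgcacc
Arntl, ROR core, plus strand, chr7:113207517-113207560: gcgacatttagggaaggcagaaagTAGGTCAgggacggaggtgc

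None of the 23 clock probe sets differed between G1 and G0 past the threshold. Values are log2 expression relative to the median of each probe set over the 8 arrays, so they show differences between arrays and no absolute level. Differences are G1 minus G0 from limma, with p-values adjusted over all 45037 probe sets by the Benjamini-Hochberg method and a threshold of 0.05. The number past it was 0 of 23, where 0.4% of all probe sets passed (180, of which 168 were higher in G1). With no adjustment, 2 clock probe sets had p under 0.05, both lower in G1, where 3.59% of all probe sets were lower and 3.71% higher at that p. The lowest adjusted p among the 23 was 0.644. The median difference was −0.01, against −0.06 over all probe sets, and 12 of 23 differences were below 0, where 55.0% of all probe sets were.

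The labelling of the arrays bears on every value here. Per the labels' protocols replicate 4 of each group was labelled by kit protocol revision 3 and the other replicates by revision 8, and that batch is a term in the fit. The poly-A spike-in controls, bacterial RNAs added before labelling, were missing instead on the arrays titled G1 replicate 4 and G0 replicate 3. A fit with that batch in place of the labelled one gives the same differences with other errors. It called 0 of the 23 too, with 0.788% of all probe sets past the threshold, and 3 clock probe sets at an unadjusted p under 0.05, all lower in G1, where 6.11% of all probe sets were lower. On the 6 arrays with spike-ins 0 of the 23 passed as well.

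**Figure D1:**
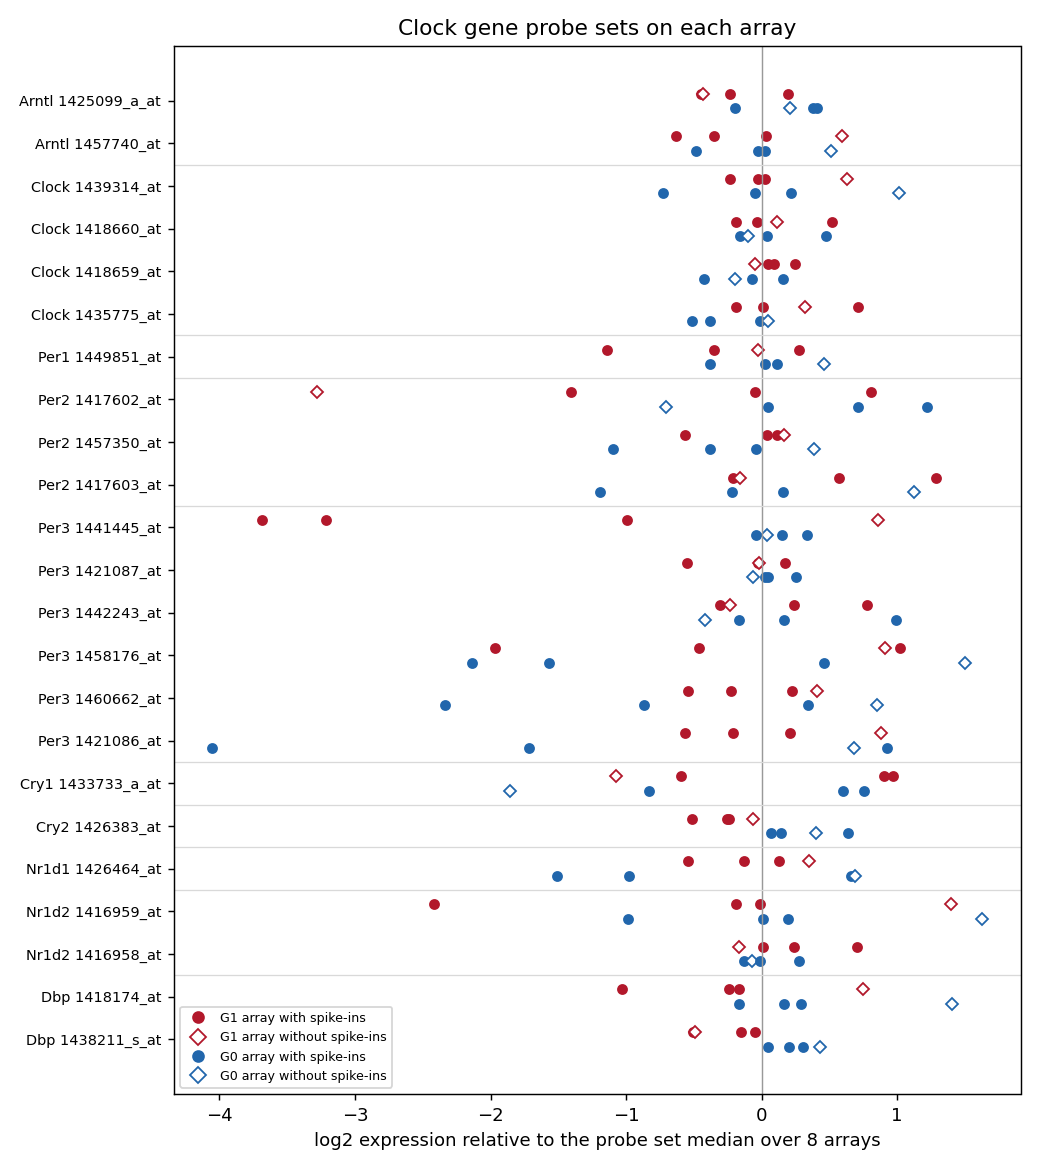
Log2 expression of the 23 clock probe sets on each array, relative to the median of the probe set over 8 arrays, with G1 in red above G0 in blue and open diamonds for the arrays without spike-in controls. Cry2 1426383_at and Dbp 1438211_s_at are the rows in which no G1 point reaches a G0 point; the Per3, Per2 and Nr1d2 rows hold the widest scatter.

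The repressor Cry2 was the clock gene with the smallest p. Its only probe set, 1426383_at, read −0.26, −0.24, −0.51 and −0.07 on G1 replicates 1 to 4, against 0.64, 0.07, 0.40 and 0.14 on G0 replicates 1 to 4. Every G1 array was below every G0 array, with a gap of 0.13 between the nearest pair. The means were −0.27 ± 0.18 in G1 and 0.31 ± 0.26 in G0 (SD, n = 4 each). In limma the difference was −0.58, so that G0 was 1.5-fold above G1 (95% confidence interval of the difference −1.11 to −0.06, unadjusted p = 0.0345, adjusted p = 0.644). When the spike-in batch was fitted, the interval was −1.01 to −0.16 and the adjusted p 0.297, which did not pass either. Within the labelled batches the difference was −0.71 (revision 8) and −0.21 (revision 3). By spike-ins it was −0.62 on the arrays with them and −0.47 on those without. The values for revision 3 and without spike-ins each rest on a single array of each group.

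Dbp, the D-box activator whose mRNA is a direct output of the loop, had the other separated probe set. On 1438211_s_at it read −0.51, −0.15, −0.05 and −0.49 on G1 replicates 1 to 4, against 0.05, 0.31, 0.43 and 0.20 on G0 replicates 1 to 4. The groups did not overlap, by a margin of 0.09. The difference was −0.54 in limma, a 1.46-fold higher value in G0 (interval −1.05 to −0.04, unadjusted p = 0.0379, adjusted p = 0.657, or 0.343 when the spike-in batch was fitted). The _s_at suffix marks probes that can match more than 1 transcript.

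The second Dbp probe set, 1418174_at, had a like difference and a wider spread. Its values were −0.17, −1.03, −0.24 and 0.75 on G1 replicates 1 to 4, against 0.29, 0.17, 1.40 and −0.17 on G0 replicates 1 to 4. Here the groups overlapped, and the highest array of each group was the one without spike-ins. The limma difference was −0.60 (SE 0.48, adjusted p = 0.877). When the spike-in batch was fitted, the SE was 0.23, the interval −1.15 to −0.04 and the adjusted p 0.413. The difference was −0.58 on the arrays with spike-ins and −0.66 on those without. It was −1.10 and 0.91 in the labelled batches of revision 8 and 3, and −0.23 without G0 replicate 3. Again revision 3 and the arrays without spike-ins hold a single array of each group. The mean of both probe sets differed by −0.57 (adjusted p = 0.630 in a fit over gene means).

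Separation in this direction was seen in 2 of the 23 clock probe sets, where 2.9% of all probe sets were separated with G1 lower. In the other direction it was 0 of 23, against 3.16%.

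The activators Arntl and Clock were measured by 6 probe sets, none of them separated. Arntl on 1425099_a_at read −0.44, 0.19, −0.23 and −0.43 on the G1 arrays, against 0.38, 0.41, 0.21 and −0.19 on the G0 arrays. Its difference of −0.43 was the largest of the 6 downward (SE 0.22, adjusted p = 0.767), with 3 of 4 G0 arrays above every G1 array. The other Arntl probe set, 1457740_at, differed by −0.09 (SE 0.32).

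Clock encodes the partner of ARNTL, which is also a histone acetyltransferase. Its 4 probe sets differed by −0.01, 0.04, 0.22 and 0.43, with adjusted p between 0.83 and 0.998. The highest, on 1435775_at, came from 0.71, 0.01, −0.19 and 0.32 in G1, against −0.01, −0.51, 0.04 and −0.38 in G0. The quietest, 1418659_at, had a pooled within-group SD of 0.19 and an interval of −0.29 to 0.73. Differences above 0.73 or below −0.29 log2 units lie outside the interval for that probe set.

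The Per genes encode the rhythmic partners of the cryptochromes, and Per1 and Per2 are the members that respond first to serum. Per1, with a single probe set, read −1.14, 0.27, −0.35 and −0.02 on G1 replicates 1 to 4, against −0.38, 0.02, 0.46 and 0.11 on G0 replicates 1 to 4. G1 replicate 1 was the lowest array and G0 replicate 3 the highest, with the rest intermixed. Its difference was −0.36 (interval −1.23 to 0.50, adjusted p = 0.917).

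Per2 had 3 probe sets that differed in sign. On 1417602_at it read −1.40, 0.81, −0.05 and −3.28 in G1, against 0.05, 1.22, −0.71 and 0.71 in G0. The lowest value in each group was on the array without spike-ins. The difference was −1.30 with an interval of −3.27 to 0.67 (adjusted p = 0.83), which spans 0. The other Per2 probe sets, 1457350_at and 1417603_at, differed by 0.22 and 0.41.

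Per3 had 6 probe sets, and their differences ran from −1.88 to 1.12, a spread of 3.01 log2 units within this gene. The lowest, 1441445_at, read −1.0, −3.69, −3.21 and 0.86 in G1, against 0.34, −0.04, 0.04 and 0.15 in G0. Here G1 replicates 2 and 3 were far below the rest, and G1 replicate 4, without spike-ins, was the highest of all 8. The highest, 1421086_at, read −0.57, 0.21, −0.21 and 0.88 in G1, against 0.92, −1.72, 0.68 and −4.05 in G0. In this case G0 replicates 2 and 4 were the low arrays, and the same arrays were the lowest of G0 on 1458176_at (−1.57 and −2.14) and on 1460662_at (−0.87 and −2.34). The quietest Per3 probe set, 1421087_at, had a pooled SD of 0.24 and a difference of −0.17 (interval −0.72 to 0.38, adjusted p = 0.950). The mean of the 6 differed by −0.03 (adjusted p = 0.993 in the fit over gene means).

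Cry1 encodes the second cryptochrome, which with Cry2 forms the repressive arm. On its only probe set it read −0.60, 0.97, 0.90 and −1.08 in G1, against −0.83, 0.60, −1.86 and 0.76 in G0. In each group 2 arrays were high and 2 low, and the lowest of each was the array without spike-ins. The difference was 0.38 with an interval of −1.40 to 2.17 (adjusted p = 0.972). Whether Cry1 and Cry2 differed in their response was not tested.

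The REV-ERB genes gave no call in either direction. Nr1d1 read −0.55, −0.13, 0.13 and 0.35 on the G1 arrays, against −1.51, 0.66, 0.69 and −0.98 on the G0 arrays, and the G0 values enclosed all of those of G1. Its difference was 0.24 (interval −1.12 to 1.59, adjusted p = 0.977). Nr1d2 differed by 0.18 on 1416958_at (pooled SD 0.30, interval −0.38 to 0.74, adjusted p = 0.947). On 1416959_at it differed by −0.52 with a pooled SD of 1.35. That probe set read 1.40 and 1.63 on the G1 and the G0 array without spike-ins, above all other arrays of its group.

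**Figure D2:**
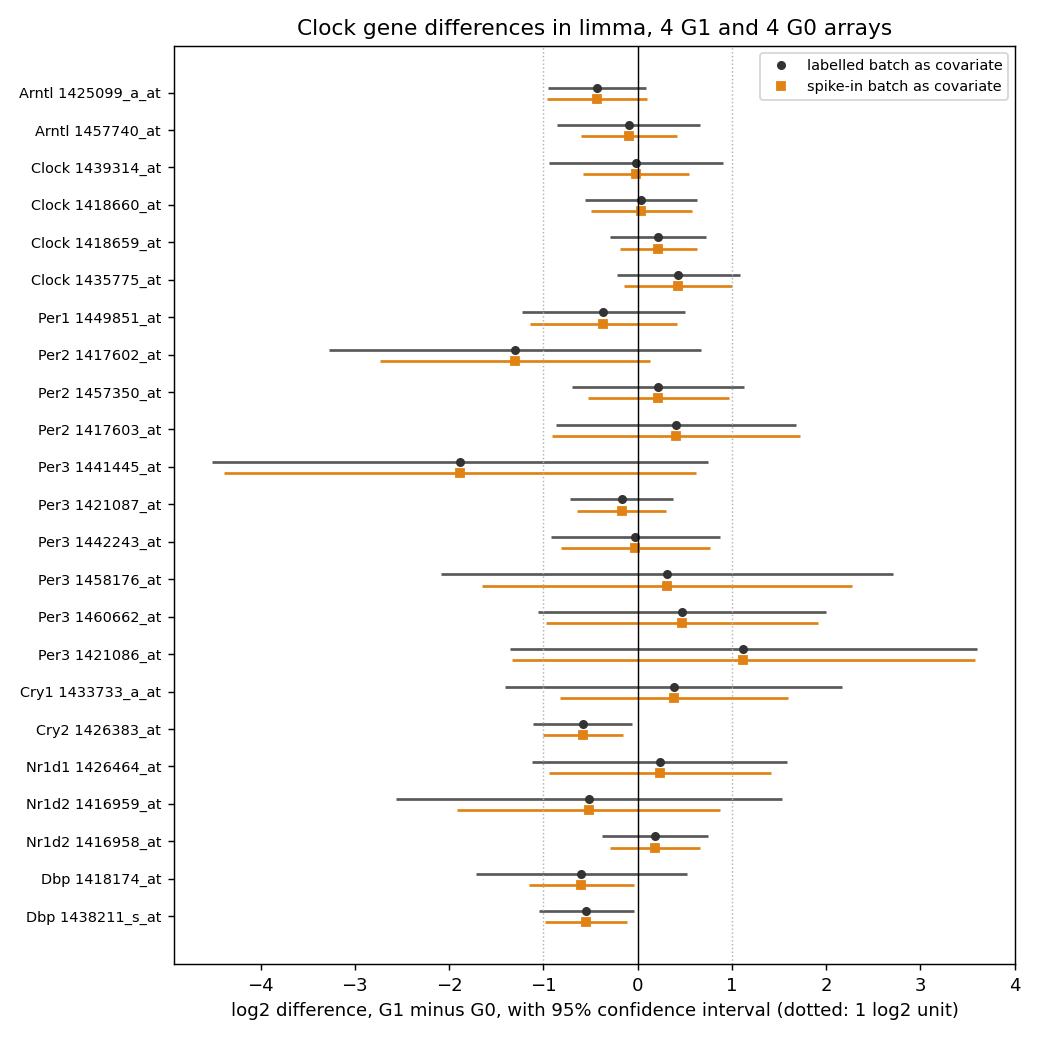
Log2 difference (G1 minus G0) of each clock probe set with its 95% confidence interval from limma on 4 G1 and 4 G0 arrays, with the labelled batch (dark circles) or the spike-in batch (orange squares) as covariate. The intervals of Cry2 1426383_at and Dbp 1438211_s_at lie below 0 in both fits and that of Dbp 1418174_at in the second only, none of them at an adjusted p under 0.05.

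The intervals show what size of change these arrays could bound. With the labelled batch, 8 of the 23 clock probe sets had a 95% interval within 1 log2 unit of 0 on both sides. Over all probe sets 29.4% had such an interval. These 8 included 3 of the 4 for Clock, both for Arntl, 2 for Per3 and 1 for Nr1d2. For Per1, Per2, Cry1, Cry2, Nr1d1 and Dbp no probe set had one in that fit. For these genes it left a 2-fold difference unbounded on at least 1 side. When the spike-in batch was fitted, 10 of the 23 had such an interval, against 17253 of all 45037. They included Per2 1457350_at (−0.53 to 0.97) and Dbp 1438211_s_at (−0.98 to −0.11). Pooled within-group SDs ran from 0.19 to 1.71 with a median of 0.56, against a median of 0.70 over all probe sets.

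Within the clock genes, as over all probe sets, the 2 arrays without spike-ins stood apart by more than the sorted groups did. The mean of those arrays minus that of the other 6 was larger in size than the difference between G1 and G0 in 16 of 23 probe sets, and in 63.0% of all probe sets. Its median size was 0.61 in the clock probe sets, against 0.38 for the difference between groups. Over all probe sets these medians were 0.55 and 0.34. A contrast of 2 arrays with 6 is noisier than one of 4 with 4. It therefore tends to be larger in size with no batch effect as well. The widest such contrasts among the clock probe sets were −2.22 for Per2 on 1417602_at, 2.08 for Nr1d2 on 1416959_at, 1.98 for Per3 on 1458176_at and −1.77 for Cry1. For the separated pair it was small, 0.20 for Cry2 and −0.01 for Dbp on 1438211_s_at. The array titled G0 replicate 3 held the highest value of all 8 in 9 of the 23 probe sets. How often it did so over all probe sets was not counted, so this is not shown to be particular to the clock genes. The sign of the difference between groups was the same in both labelled batches for 11 of 23 probe sets, against 45.7% of all. In both spike-in batches it was the same again for 11, against 61.6% of all. The smaller batch of either kind holds a single array of each group.

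**Figure D3:**
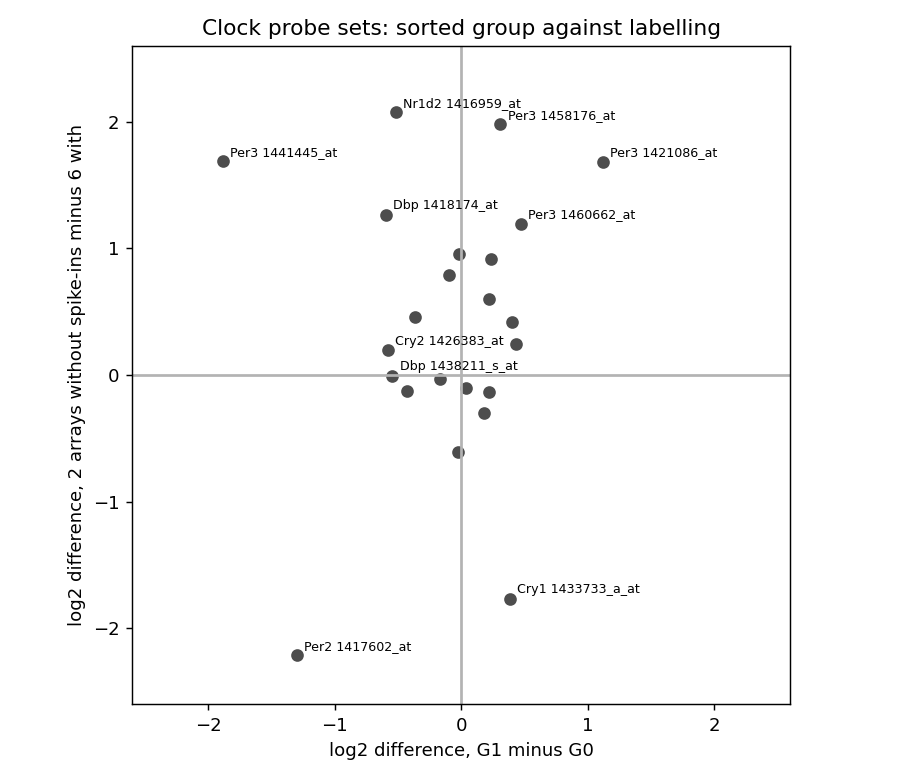
For each clock probe set, the log2 difference between G1 and G0 (horizontal) and between the 2 arrays without and the 6 with spike-in controls (vertical), on equal scales, with names where the vertical value exceeds 1 in size or the groups do not overlap. Points spread further along the vertical axis, from −2.22 to 2.08, than along the horizontal, from −1.88 to 1.12.

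Other genes of the pathway were read by 1 probe set each, picked by the form of its name. In 4 lists with 60 entries, 54 genes were measured and none passed over all probe sets, with the labelled or the spike-in batch, where 0.522% and 1.01% of all genes did. Unadjusted, 6 of the 54 had p under 0.05, where 8.07% of all genes did. Groups did not overlap in 4 of the 54, against 7.07% of all genes.

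Of the 10 other clock transcription factors measured, 7 were below 0, where 55.3% of all genes were, and the list's median was −0.36 against −0.06. Bhlhe40 (DEC1), an E-box repressor that is itself a target of the loop, read −1.44, −0.01, −0.46 and −0.14 in G1, against 0.65, 0.47, 0.75 and 0.01 in G0. The groups were separated, though G1 replicate 2 and G0 replicate 4 were 0.012 apart. The difference was −0.98 (SE 0.37, adjusted p = 0.640). Nfil3, the D-box repressor, differed by −0.64 (SE 0.25, adjusted p = 0.656). Tef, a D-box activator like Dbp, differed by −0.26 (SE 0.20, adjusted p = 0.864), and its other probe sets by −1.03 and −0.84 (adjusted p = 0.594 and 0.697). Rora, which activates Arntl, differed by −0.50 (SE 0.46), but its 9 probe sets ran from −0.98 to 0.98.

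Of the 21 enzymes and cofactors that act on clock proteins, 8 were below 0 and 13 above, with a median of 0.06. Usp2, a deubiquitinase that is a rhythmic output and acts on clock proteins, read 0.15, −0.02, 0.61 and 0.69 in G1, against −0.45, 0.02, −0.37 and −0.19 in G0. Only G1 replicate 2 and G0 replicate 2 crossed, and the difference was 0.60 (SE 0.23, adjusted p = 0.645). Timeless, which in mammals works mainly at replication forks, differed by 0.62 (adjusted p = 0.774). Wdr5, a histone methyltransferase subunit found with PER complexes, differed by 0.40 with groups separated by 0.024 (adjusted p = 0.810). On its other probe set it differed by 0.22 and the groups overlapped. Btrc, the F-box protein that targets PER for degradation, differed by 1.31 (SE 0.82, adjusted p = 0.823), with its other 4 probe sets between −0.49 and 0.40.

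The 8 clock-controlled output genes measured had a median of 0.04, with 3 below 0. Vegfa, the angiogenic growth factor, differed by −0.82 (SE 0.35, adjusted p = 0.682). Cdkn1a (p21) differed by 0.57, Wee1, the kinase that holds back Cdk1 and has E-boxes in its promoter, by 0.22, and Myc by −0.25 (adjusted p = 0.771, 0.897 and 0.945).

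The 15 serum response genes were listed as responding through CREB or SRF, a route by which serum reaches Per1 and Per2. What drives each of them in these cells was not tested. Of the 15 genes 14 were below 0, where 55.3% of all genes were, and the median was −0.36 against −0.06. All were read on the same arrays, so their signs are not independent of each other. The sign was the same in both labelled batches for 7 of the 15, against 47.2% of all genes. In both spike-in batches it was the same for 13, against 62.8%. None of the 15 passed, and 2 had an unadjusted p under 0.05 in limma, where 8.07% of all genes did. Dusp1, a phosphatase of MAP kinases, read −0.67, −0.74, −0.60 and −0.07 in G1, against 0.11, 0.10, 0.74 and 0.07 in G0. The groups were separated, and G1 replicate 4 was the nearest to G0. Klf10 was separated too, at −0.18 ± 0.12 in G1 and 0.31 ± 0.19 in G0 (SD, n = 4 each). The difference was −0.77 for Dusp1 (adjusted p = 0.619, or 0.112 when the spike-in batch was fitted) and −0.49 for Klf10 (adjusted p = 0.661). Nr4a2 and Egr2 differed by −1.52 (SE 0.90, adjusted p = 0.810) and −0.70 (adjusted p = 0.83). The other 5 probe sets of Nr4a2 lay between −0.13 and 0.35, and the second of Egr2 was at −1.10 (adjusted p = 0.605).

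**Figure D4:**
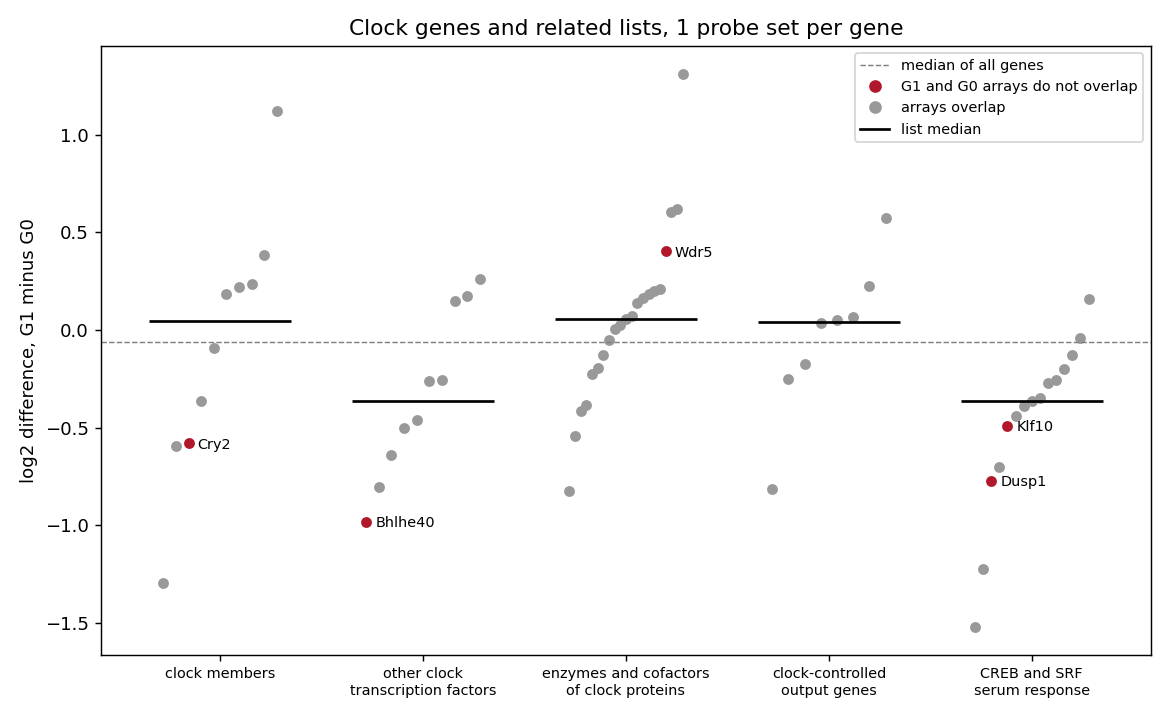
Log2 difference (G1 minus G0) of each gene by 1 probe set, for the 10 clock genes and 4 related lists, with the median of each list as a black line and the median of all genes dashed. Red points are genes whose G1 and G0 arrays do not overlap; the lists of other clock transcription factors and of serum response genes have their medians at −0.36.

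Over the 8 arrays the genes most like Cry2 were C1ra (Pearson r = 0.98), Stradb (0.98) and Emilin1 (0.97), and 99 of 18192 genes had an r above 0.9. They differed between G1 and G0 by −0.76, −0.28 and −1.23, none past the threshold (adjusted p = 0.416, 0.835 and 0.370). The arrays share 2 labelling batches and the values are few, so the order of such genes is a description.

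The labelled cell type could not be checked by level, since centred values hold none. Among 8 fibroblast markers 0 passed and 6 were below 0, with Col3a1 separated at −0.72 on the probe set counted (adjusted p = 0.432). Further probe sets of Col3a1, Col1a1 and Pdgfrb were separated too, at −0.48, −0.78 and −1.42 (adjusted p in limma 0.744, 0.499 and 0.384). Those of Col1a2, Fn1 and Vim overlapped, at −1.21 to 0.07. Of all probe sets 2.9% were separated with G1 lower. Among 14 measured markers of leukocytes, epithelium and endothelium 0 passed. An unadjusted p under 0.05 in limma was seen in 2, Lyz2 at −0.55 and Pecam1 at 1.16, where 8.07% of all genes had one. Neither stood for its list, since 1 leukocyte marker was below 0 and 4 above, and 2 endothelium markers were below and 2 above. Of the epithelium markers 2 were below 0 and 3 above. Krt8 differed by −0.17 on the probe set counted. On its others it differed by −0.28 and −0.93, the latter with separated groups. The part of these markers in the values above was not tested.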

How the data were processed

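RNA of 8 arrays, 4 of G1 and 4 of G0 cells, was measured on Affymetrix mouse arrays. The deposited values are log2 expression. The submitters' processing notes name MAS5. The log base, and the step that centred each probe set on its median (largest absolute median 5e-07), are not given in the sources used here. Base 2 was taken from the range of −12.4 to 5.58. With no level, no filter on dim probe sets was possible. No further scaling was applied (array medians −0.07 to 0.09).

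The 64 control probe sets were left out. Of 45037 others, 34945 had 1 symbol, 932 several and 9160 none, and 34741 symbols were looked up by Entrez identifier among GRCm38.p6 gene names. A gene stood for 1 probe set by suffix (_at, _a_at, _s_at, _x_at), then lowest number. Each probe set was fitted in limma 3.58.1 under R 4.3.3 (trend, labelled batch as covariate, 5 residual and 2.34 prior degrees of freedom, two-sided, Benjamini-Hochberg over all probe sets). On simulated data with normal noise and no batch effect, the median estimates of the fit were checked to lie near the planted differences. That check cannot speak to the choice of batch term. Depth is limited by the number of arrays. Of the list entries, 7 had no probe set with 1 symbol and were not analysed here.

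The members and lists were chosen with earlier results of these data known. All members are named. From each other list the text names genes past the threshold, then up to 4 by smallest p; likeness takes the 3 highest correlations with the member of smallest p. The cell type markers named, and the further probe sets of named genes, were chosen after their values were seen. The replicate number was not a term in the fit.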

Additional observations from a re-analysis of the deposited data

Results flagged for a closer look

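One array stood far from the others of its group by Dixon's test among 46 groups screened. For Per2 on 1457350_at, G1 replicate 2 read −0.57, while the nearest of the other G1 arrays read 0.04, and the gap was 0.833 of the group's range, above the 95% critical value for 4 arrays. Chance flags about 1 in 20 groups. The same array was not lowest in G1 on the other Per2 probe sets, where it read 0.81 and 1.28, and the cause was not tested.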

How the results depend on the processing

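The count of clock probe sets past the threshold was 0 under every alternative run, as were the counts of the 4 related lists, with arrays left out singly and with the titled replicate as a block (0). At limma's unadjusted p under 0.05 it was 0 to 4 of 23. Of 624 alternative values of single clock probe sets and genes, 561 kept their direction and side of the threshold, 63 changed sign and 0 became calls. Cry2 kept its sign throughout (−0.71 to −0.45, adjusted p 0.293 to 0.905), as did Dbp on 1438211_s_at (−0.63 to −0.42, adjusted p 0.303 to 0.857) and on 1418174_at (−1.10 to −0.23, adjusted p 0.413 to 0.993). Over all probe sets 180 passed, against 355 with the spike-in batch, 44 on the 6 arrays with spike-ins, 434 without probe sets of pooled SD over 1, 0 with the replicate block and 0 with revision 8 only, where limma's unadjusted p was under 0.05 in 3219 and 3575. With single arrays left out of the fit by labelled batch the count ran from 0 to 122, with 46 without G0 replicate 1, 122 without G0 replicate 3 and 0 without any other, where 2798 to 3682 had that unadjusted p. In the fit by spike-in batch it was 237, 199, 99 and 163 without G0 replicates 1 to 4, 53 without G1 replicate 2 and 0 without G1 replicate 1, 3 or 4, where 3790 to 4714 had that unadjusted p. The sign turned for Clock 1439314_at on the 6 arrays with spike-ins (0.11), with array weights (0.0466), with quantile normalization (0.0161) and with array medians centred (0.0116). It turned for Clock 1418660_at on those 6 arrays (−0.0189) and with array weights (−0.0249). For Per3 1442243_at it turned with revision 8 only (0.38), array weights (0.0797), quantile normalization (0.00323) and array medians centred (0.00193). With revision 8 only it also turned for Per3 1458176_at (−0.60), 1460662_at (−0.29) and 1421086_at (−0.15) and for Nr1d1 (−0.13). The mean of all probe sets turned Per3 (−0.0293) and Nr1d2 (−0.17). With arrays left out singly, by the labelled batch or, as chosen after seeing the data, by the spike-in batch, values that changed sign ran from −0.33 to 0.12 for Arntl 1457740_at, −0.29 to 0.32 for Clock 1439314_at, −0.11 to 0.19 for Clock 1418660_at, −0.0605 to 0.46 for Per2 1457350_at, −0.0463 to 0.97 for Per2 1417603_at, −0.29 to 0.38 for Per3 1442243_at, −0.60 to 1.00 for Per3 1458176_at, −0.29 to 0.88 for Per3 1460662_at, −0.15 to 1.97 for Per3 1421086_at, −0.16 to 1.12 for Cry1, −0.21 to 0.65 for Nr1d1 and −1.48 to 0.20 for Nr1d2 1416959_at. The cause was not tested. Deviations from group means correlated at 0.069, 0.106, −0.139 and −0.136 for replicates 1 to 4 of the same number, so the numbers were not taken as pairs. The highest correlation was 0.309, between G1 replicate 4 and G0 replicate 3, the arrays without spike-ins, and that of G1 replicate 3 with G0 replicate 4 was 0.1. Whether the titles of G0 replicates 3 and 4 were exchanged was not tested. Without replicate 4 of either group the labelled batch term takes up its partner, so those fits compare revision 8 only.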
